A study of Mus musculus with 12 samples.

Results

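Transcriptomes of 4T1 tumours that had received miR-183-5p-EVs were set against those of tumours that had received miR-142-5p-EVs. The comparison rests on the 3 tumours that the labels give to each of these treatments, 6 of the 12 tumours sequenced. The 4T1 line is a mammary carcinoma of the mouse that grows in immunocompetent BALB/c animals. Female BALB/c mice aged 6 to 8 weeks received 100000 4T1 cells under the skin of the right flank and were divided at random 5 days later. From then on, 3 µg of EVs were injected beside the tumour every 2 days, and tumour RNA was taken on day 21. EVs are membrane vesicles that cells release. Here they came from MS-1, a single mouse endothelial line, and were electroporated with a synthetic mimic of either miRNA. Tumours that received EVs with the nematode miRNA cel-miR-67 (ctrl, 3 tumours) serve below as a reference level, and the tumours given miR-222-3p-EVs (3 tumours) entered the fit to help estimate the spread. Every tumour thus carried the same carcinoma line, the same EV source and the same injection schedule, and the groups differed in the mimic. Each library was made from polyadenylated RNA of a tumour, and the paper names no sorting of cell types for it. Carcinoma cells, stroma and infiltrating leukocytes were thus read together. Whether the RNA came from intact tissue or from cells collected out of the tumour is not stated plainly. The labels number the tumours of a group but do not tie each number to a separate mouse, so the p-values measure the spread between these samples.

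miRNAs are short RNAs that guide a silencing complex to messenger RNAs, usually through pairing of the seed (bases 2 to 8 of the miRNA) with a site in the 3′ UTR, which lowers translation and the stability of the message. miR-142 is best known as a miRNA of blood cells, and miR-183 belongs to a miRNA cluster best known from sensory organs. Macrophages that settle in tumours (TAMs) are often described between an inflammatory, M1-like state marked by Nos2 and a tissue-repair, M2-like state marked by Arg1 and Mrc1. The mature sequences (RefSeq, GRCm38.p6) are shown because their seeds define the sites counted further on, with the seed in capitals:
miR-183-5p: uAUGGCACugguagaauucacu
miR-142-5p: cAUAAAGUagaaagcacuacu
miR-183-5p is encoded on the minus strand of chromosome 6 (positions 30169711 to 30169732) and miR-142-5p, annotated in mice as miR-142a-5p, on the plus strand of chromosome 11 (positions 87756867 to 87756887). A message with the letters GTGCCAT can pair with the whole miR-183-5p seed, and one with ACTTTAT with the whole miR-142-5p seed.

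The 6 libraries held between 20490870 and 27021401 estimated reads, and between 14452 and 15437 genes reached at least 10 reads in a library. Epithelial markers of the carcinoma line were abundant in each of them. Epcam had normalised read counts of 2285, 3276 and 2330.1 in miR-183-5p tumours 1 to 3 and of 3119, 2492 and 1661 in miR-142-5p tumours 1 to 3, and Krt8 had 14844, 16184 and 15438 against 19554, 16860.4 and 14038. A normalised read count is the number of estimated reads of a gene after correction for library size and transcript length. Tumour 3 of each group stood apart from the other 4 tumours. On the first principal component of the 500 most variable genes, which carried 56.2% of the variance among these 6 tumours, miR-142-5p tumour 3 lay at 23.4 and miR-183-5p tumour 3 at -13.8, with the others between -5.35 and 4.85. On the second, which carried 25.3%, miR-142-5p tumour 2 lay at -11.5. There miR-183-5p tumour 3 lay at 12.4, miR-142-5p tumour 3 at 7.86 and the others between -3.44 and -2.31.

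In miR-183-5p tumour 3, skeletal muscle genes were high. Acta1, the actin of skeletal muscle fibres, had 0, 0 and 1650.0 estimated reads in miR-183-5p tumours 1 to 3 and 0, 6 and 0 in miR-142-5p tumours 1 to 3. Ckm, the muscle creatine kinase, had 23, 8 and 941 against 17.2, 11 and 18, and Myh4, a myosin of fast fibres, had 0, 6 and 3295 against 0, 0 and 0. In each case the other 5 tumours had few or no reads. The summed abundance of 38 muscle genes was 322, 316 and 1135 TPM in miR-183-5p against 329, 261 and 299.6 in miR-142-5p tumours, where TPM is the length-corrected share of a transcript, scaled to a fixed sum per library. Of these genes, 7, 6 and 2 were at 0 reads in the former and 8, 6 and 7 in the latter.

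In miR-142-5p tumour 3, lymphoid genes were high. Cd79a, a subunit of the B cell receptor, had 4, 10 and 2773 estimated reads in miR-142-5p against 8, 12 and 20 in miR-183-5p tumours. Ms4a1, which encodes CD20, had 6.09, 6.48 and 2737 against 7.07, 5 and 4.13, and Cxcl13, the chemokine of B cell follicles, had 0, 0 and 626 against 1, 1 and 4. These B cell genes were thus read in quantity in 1 of the 6 tumours. The T cell receptor subunit Cd3e was also read in the other tumours, with normalised counts of 139, 155 and 564 in miR-142-5p against 194, 119 and 61.6 in miR-183-5p tumours, so that the highest value was that of miR-142-5p tumour 3 and the lowest that of miR-183-5p tumour 3. Ccl21a, a chemokine of lymph node stroma, had 70, 0 and 3559 estimated reads against 1, 0 and 2. The summed TPM of 22 B and plasma cell genes was 41.8, 65.3 and 2722 in miR-142-5p against 50.7, 54.3 and 39.5 in miR-183-5p tumours. In the same order, these sums were 129.5, 188 and 691 against 158, 144 and 87.9 for 25 T cell genes, and 38.9, 25.9 and 878 against 39.3, 30.6 and 40.1 for 13 genes of lymphoid tissue organisation. In miR-142-5p tumour 3, 0 genes of these 3 lists were at 0 reads. In the other 5 tumours between 1 and 3 B and plasma cell genes, 1 T cell gene and between 1 and 4 genes of lymphoid tissue organisation were at 0. In bulk tumours, fewer cells of a type and less RNA per cell cannot be told apart.

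**Figure D1:**
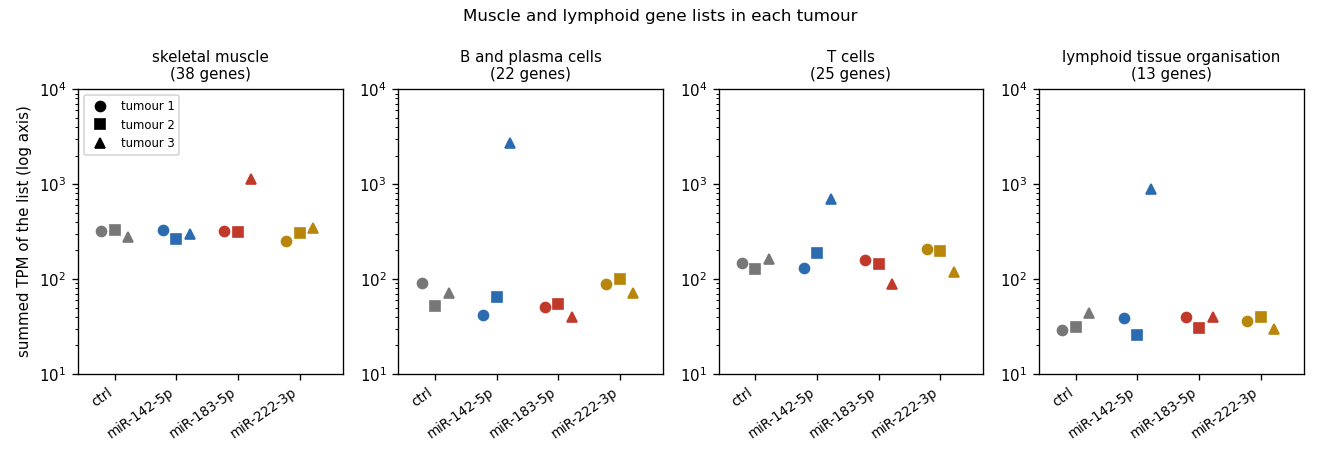
Summed TPM (log axis) of 4 marker lists in each of the 12 tumours, coloured by group, with a symbol for each tumour number. Skeletal muscle genes were highest in miR-183-5p tumour 3 (1135 TPM), and the 3 lymphoid lists were highest in miR-142-5p tumour 3 (2722, 691 and 878 TPM).

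Tumour 3 of the miR-183-5p group differed from the other 5 in a second way. Gm28661, a nuclear pseudogene of the mitochondrial gene mt-Co2, took 0.0169% of the reads of both genes in that library, and between 7.13% and 23.5% in the other 5. The 3 miR-222-3p libraries were also low (at most 0.324%). What this split between libraries stands for is not given in the sources used here, and leaving out miR-183-5p tumour 3 gives the comparison within 1 side of it. Results are therefore given below with and without tumour 3 of both groups.

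Of 15459 genes tested, 15413 received an adjusted p-value, and 8 (0.0519%) passed the threshold of 0.05 (DESeq2 Wald test, Benjamini-Hochberg adjustment). In miR-183-5p tumours 6 rose relative to miR-142-5p tumours: the collagenase Mmp13, the stromelysin Mmp3, the acute-phase protein Hp (haptoglobin), the fatty acid desaturase family gene Fads3, the actin-filament gene Nexn and the trafficking gene Rusc2. The other 2 fell: the fibril-associated collagen Col14a1 and Blnk, the adaptor of B cell receptor signalling. In each of the 8 genes, every miR-183-5p tumour lay on 1 side of every miR-142-5p tumour. Without regard to the threshold, 5.92% of all genes had every miR-183-5p tumour above, and 6.43% every miR-183-5p tumour below, every miR-142-5p tumour.

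Both proteases lie on chromosome 9 of GRCm38. Mmp13 (ENSMUSG00000050578.10, chromosome 9, positions 7272514 to 7283331) encodes an interstitial collagenase, and Mmp3 (ENSMUSG00000043613.8, chromosome 9, positions 7445822 to 7455975) a broad protease that also activates other metalloproteinases. Mmp13 had normalised counts of 10476, 6726 and 12767 in miR-183-5p tumours 1 to 3, against 5175, 3153 and 4311 in miR-142-5p tumours 1 to 3. All 3 miR-183-5p tumours also lay above the ctrl tumours (4601, 4682 and 6034). The group means were 9989.6 ± 3049.6 and 4213 ± 1015 (SD, n = 3), a 2.37-fold difference (DESeq2, log2 fold change 1.25, SE 0.25, adjusted p = 0.00301). Mmp3 had 4523, 4254 and 7307 in miR-183-5p tumours against 2429, 1581 and 2064 in miR-142-5p tumours, with ctrl tumours between them at 3006, 2811 and 2741. Its means were 5361 ± 1689.9 and 2025 ± 425 (SD, n = 3), a 2.65-fold difference (DESeq2, log2 fold change 1.40, SE 0.28, adjusted p = 0.00301). Against ctrl, the log2 fold change of Mmp13 was 0.97 (SE 0.25) in miR-183-5p and -0.28 (SE 0.25) in miR-142-5p tumours, and that of Mmp3 was 0.91 (SE 0.28) and -0.49 (SE 0.28). These contrasts share the ctrl tumours.

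The promoters of Mmp13 and Mmp3 are shown because both genes rose and both windows hold the letters TGANTCA, the site bound by AP-1 (Fos and Jun proteins). The windows run from 250 bases before to 50 bases after the start of the gene on the plus strand (RefSeq, GRCm38.p6), with the match in capitals:
Mmp13 (chr9:7272264-7272563): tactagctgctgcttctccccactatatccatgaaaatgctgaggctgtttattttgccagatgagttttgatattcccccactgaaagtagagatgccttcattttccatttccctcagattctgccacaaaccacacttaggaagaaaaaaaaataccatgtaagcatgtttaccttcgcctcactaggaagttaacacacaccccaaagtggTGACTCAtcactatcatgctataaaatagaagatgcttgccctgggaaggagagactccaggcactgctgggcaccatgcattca
Mmp3 (chr9:7445572-7445871): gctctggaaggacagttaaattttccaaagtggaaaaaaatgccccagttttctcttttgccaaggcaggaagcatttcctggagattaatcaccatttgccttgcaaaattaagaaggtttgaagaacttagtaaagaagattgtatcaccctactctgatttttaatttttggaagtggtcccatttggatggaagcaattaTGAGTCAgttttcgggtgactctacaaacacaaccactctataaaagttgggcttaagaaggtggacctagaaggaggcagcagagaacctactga
The match reads TGACTCA in Mmp13 and begins 35 bases before the start. In Mmp3 it reads TGAGTCA and begins 46 bases before it. The pattern is its own reverse complement, so 1 search covers both strands. It was present in 7.81% of 32851 promoter windows of the same length. Counted by gene, since a gene can have several windows, it was present for 8.97% of 27025 genes. Among the 13 genes of the metalloproteinase list with a window, 4 held it (Mmp3, Mmp10, Mmp12 and Mmp13). The windows shown were picked with their match known, and those of the other genes that rose are not reported here. A match of letters does not show binding, and a part of AP-1 in the rise was not tested.

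The other genes that rose differed less. Hp (ENSMUSG00000031722.10, chromosome 8, positions 109575128 to 109579172), which encodes the plasma protein that binds free haemoglobin, had normalised counts of 753, 864 and 723 in miR-183-5p tumours against 364, 395 and 408 in miR-142-5p tumours, with ctrl between them (632, 554 and 610.2). The spread within either group was small beside the 2-fold difference (DESeq2, log2 fold change 1.003, SE 0.22, adjusted p = 0.0119). Rusc2 (ENSMUSG00000035969.15, chromosome 4, positions 43381979 to 43427088), whose product takes part in vesicle transport, had 796, 629 and 971 against 488, 374 and 463 (DESeq2, log2 fold change 0.85, SE 0.18, adjusted p = 0.0109). Nexn (ENSMUSG00000039103.12, chromosome 3, positions 152236982 to 152266350), which encodes the actin-binding protein nexilin of muscle and other contractile cells, had 281, 215 and 346 against 162, 149 and 135 (DESeq2, log2 fold change 0.92, SE 0.20, adjusted p = 0.0119). Fads3 (ENSMUSG00000024664.5, chromosome 19, positions 10041569 to 10060110) had 615, 462 and 745 against 266, 278 and 360.2 (DESeq2, log2 fold change 1.01, SE 0.24, adjusted p = 0.0432). In Rusc2, Nexn and Fads3, as in Mmp13 and Mmp3, the highest of the 6 values was that of miR-183-5p tumour 3, the tumour with the muscle reads, whose part in these values was not tested. In Hp it was that of tumour 2. The ctrl values were 656, 570.1 and 568 for Rusc2, 248, 211 and 215 for Nexn and 387, 519 and 386 for Fads3. In each of these 3 genes the ctrl tumours lay above all miR-142-5p tumours and overlapped with the miR-183-5p tumours.

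Of the 2 genes that fell, Col14a1 (ENSMUSG00000022371.16, chromosome 15, positions 55307750 to 55520803) encodes collagen XIV, which decorates the surface of collagen fibrils. Its normalised counts were 389, 317 and 328 in miR-183-5p tumours against 522, 498 and 494 in miR-142-5p tumours (DESeq2, log2 fold change -0.55, SE 0.13, adjusted p = 0.0464). The miR-142-5p tumours also lay above the 3 ctrl tumours (352, 381 and 413), while the miR-183-5p tumours overlapped them. Blnk (ENSMUSG00000061132.13, chromosome 19, positions 40928927 to 40994535) had 74.8, 46.2 and 42.1 against 101, 139 and 807 (DESeq2, log2 fold change -2.68, SE 0.61, adjusted p = 0.027). The value of miR-142-5p tumour 3 stood far above the rest, as those of the B cell genes did. In DESeq2 without tumour 3 of both groups, the log2 fold change of Blnk was -0.99 (SE 0.48, adjusted p = 1), and that of Col14a1 was -0.53 (SE 0.18, adjusted p = 1).

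**Figure D2:**
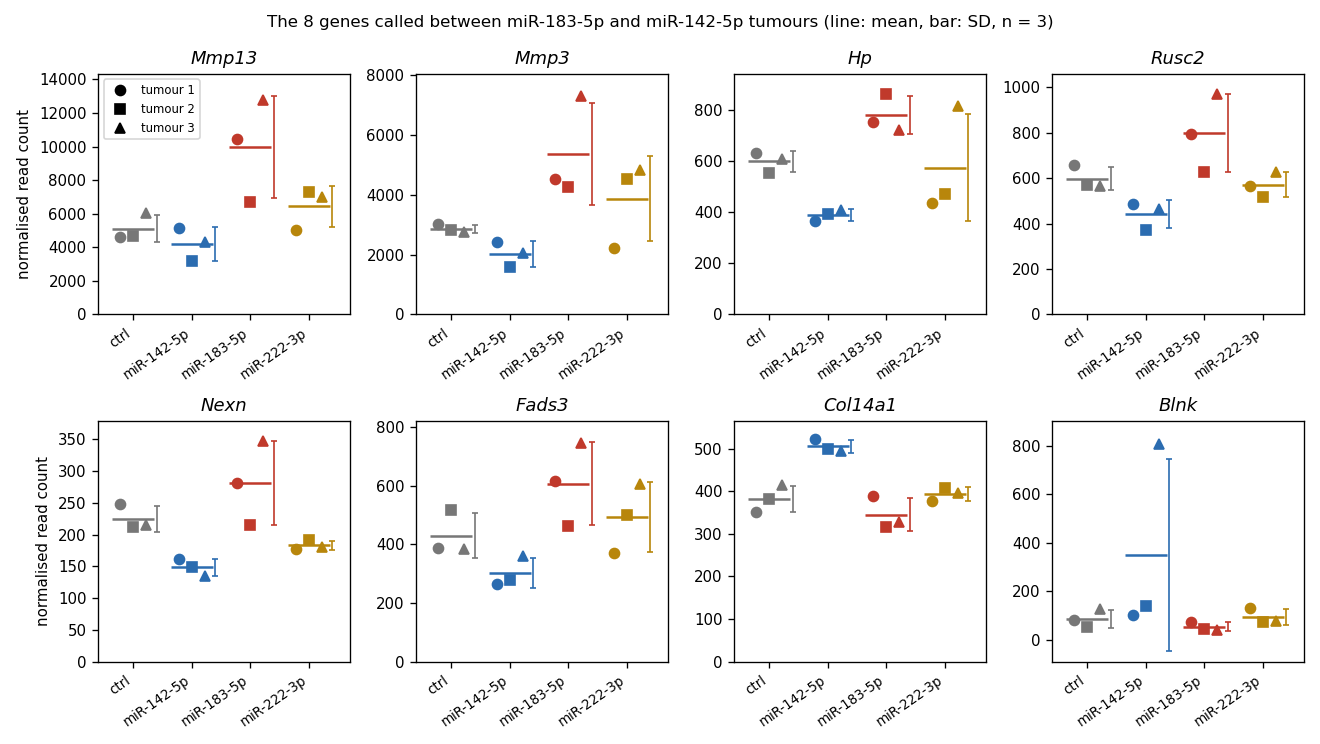
Normalised read counts (vertical axis, from 0 except where an error bar reaches below) of the 8 called genes in the 12 tumours, with the mean (line) and SD (bar, n = 3) of each group. Mmp13, Mmp3, Hp, Rusc2, Nexn and Fads3 are higher in each miR-183-5p tumour than in each miR-142-5p tumour, Col14a1 and Blnk are lower, and miR-142-5p tumour 3 (807) carries the Blnk mean.

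The 6 genes that rose kept their direction without tumour 3 of both groups, but none passed. Their log2 fold changes then ran from 0.68 (Nexn) to 1.13 (Mmp3), and the adjusted p-values from 0.373 to 1 (DESeq2, Benjamini-Hochberg). Only 2 tumours a group remained in that fit, in which 1 gene passed, Depp1, named after its value was seen. Leaving out miR-183-5p tumour 3 alone gave 0 calls, with 664 genes at an unadjusted p-value under 0.05 and adjusted p-values of the 8 genes from 0.102 (Hp) to 0.653 (Blnk). Without miR-142-5p tumour 1 the number was 415, with all 8 genes among them. In Mmp13 and Mmp3 that tumour had the highest counts of its group. Leaving out miR-142-5p tumour 2, miR-183-5p tumour 1 or miR-183-5p tumour 2 gave 57, 24 and 16 calls, and leaving out miR-142-5p tumour 3 gave 7, of which 4 were among the 8. The same 12 libraries in edgeR's quasi-likelihood test gave 0 calls and 1128 genes at an unadjusted p-value under 0.05. The 8 genes then had adjusted p-values of 0.548 and unadjusted p-values from 0.000197 (Rusc2) to 0.00187 (Blnk). Over all alternatives with a value, the adjusted p-value of Mmp13 ran from 8.18e-06 to 0.548 and that of Blnk from 0.000115 to 1.

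**Figure D3:**
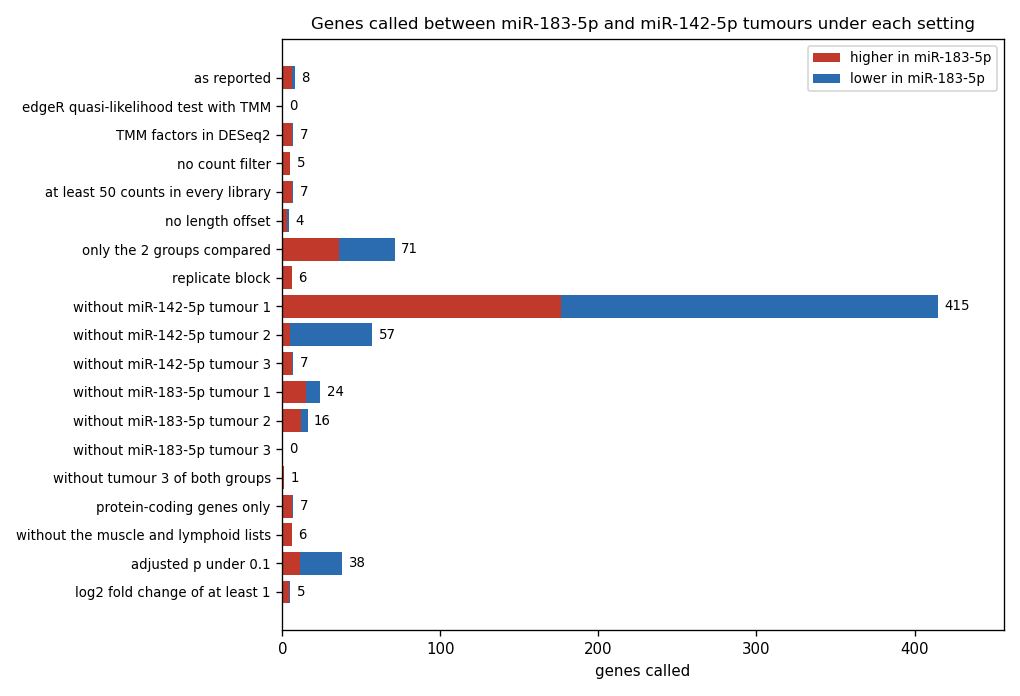
Number of genes called (horizontal axis) under each setting, split into genes higher (red) and lower (blue) in miR-183-5p tumours. The count is 8 as reported, 415 without miR-142-5p tumour 1, and 0 without miR-183-5p tumour 3 or with edgeR.

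Short of the threshold, 4 further genes headed the genes that were higher in every miR-183-5p tumour. These were Ifitm6, an interferon-induced transmembrane gene, the mitotic kinase Nek6, Ndrg2 and the receptor gene Dcbld2, with log2 fold changes from 0.41 to 1.58 and adjusted p-values from 0.0925 to 0.118 (DESeq2, Benjamini-Hochberg). Ndrg2 had normalised counts of 103, 123 and 297 against 76, 51.9 and 46.5, so miR-183-5p tumour 3 stood above the rest. Nek6 had 2562, 2405 and 2454 against 2055, 1562 and 1622, with little spread among the miR-183-5p tumours. At the other end stood 8 genes with a mean normalised count of at least 100, most of them genes of leukocytes: the adaptor Dok3, the phosphatase Ptpn7, the ATP-gated channel P2rx7, the T cell receptor constant gene Trbc2, the NADPH oxidase subunit Ncf1, the septin Sept1, the Ras regulator Rasal3 and Klhl6, a gene of B cells. Their log2 fold changes ran from -1.87 to -0.35, and the adjusted p-values from 0.0821 to 0.0925. In Dok3, Ptpn7, Trbc2, Sept1, Rasal3 and Klhl6 the highest of the 6 values was that of miR-142-5p tumour 3. It was not so in P2rx7 (747, 742 and 628 against 1123, 1904 and 1220.4) nor in Ncf1 (1467, 1548 and 1409 against 1877, 1964 and 1784), where tumour 2 was highest. With tumour 3 of both groups left out, the log2 fold change of P2rx7 was -1.02 (SE 0.32) and that of Ncf1 -0.35 (SE 0.13). Slco2b1, an organic anion transporter with a mean normalised count of 92.9 and so below that limit, was named after its values were seen. It was lower without overlap (DESeq2, log2 fold change -2.15, SE 0.52, adjusted p = 0.0558), with a log2 fold change of -1.33 without tumour 3 of both groups.

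To describe pathways and cell types, genes were grouped into 41 lists, and the members with an unadjusted p-value under 0.05 were counted. Over all genes, 3.09% met this on the higher side in miR-183-5p tumours and 4.85% on the lower side, and the median log2 fold change was -0.0027. Without tumour 3 of both groups these shares were 1.3% and 1.63%. Where counts are given with single tumours left out, 3 numbers for miR-142-5p tumours 1 to 3 come first, then 3 for miR-183-5p tumours 1 to 3. Over all genes, 1225 had an unadjusted p-value under 0.05 in either direction with all 6 tumours (DESeq2). In the order just given, this number was 1906, 777 and 819, then 1057, 1119 and 664. The count of a list therefore moved together with that of all genes and is to be read beside it. Mmp13 and Mmp3 were the 2 list members that passed the adjusted test, and all other list members are given as values short of it.

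Matrix metalloproteinases, which cleave collagens and other matrix proteins, stood mostly higher in miR-183-5p tumours. Of 16 metalloproteinase and inhibitor genes tested, 5 were higher at this level and 0 lower, with a median log2 fold change of 0.54. Mmp10, a stromelysin like Mmp3, had normalised counts of 1149, 960.1 and 3027 against 720.2, 162 and 398 in miR-142-5p tumours (DESeq2, log2 fold change 2.00, SE 0.63, unadjusted p = 0.00155, adjusted p = 0.173). The groups did not overlap, and miR-183-5p tumour 3 was the highest. Leaving out tumour 3 of both groups, 2 genes were counted on the higher side and the median was 0.33. The higher metalloproteinase genes numbered 8, 3 and 3 without miR-142-5p tumours 1, 2 and 3 in turn and 5, 4 and 4 without miR-183-5p tumours 1, 2 and 3.

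Fibroblast and matrix genes leaned the same way. Of 18 tested, 17 had a positive log2 fold change, but 2 had an unadjusted p-value under 0.05 (median 0.52). Without tumour 3 of both groups the counts of higher and lower genes were 0 and 0 and the median was 0.56. With single tumours left out, the higher fibroblast genes numbered 8, 0 and 3 without miR-142-5p tumours 1, 2 and 3 in turn and 1, 1 and 0 without miR-183-5p tumours 1, 2 and 3. Col5a1, a collagen that starts fibrils, had normalised counts of 5348, 5283 and 7352 against 4839, 2737 and 3693, and Pdgfrb, the receptor that marks fibroblasts and pericytes, had 1414, 1426 and 1564 against 1064, 753 and 1152. Neither gene overlapped between the groups, and neither passed (DESeq2, Benjamini-Hochberg, adjusted p = 0.45 and 0.572). miR-142-5p tumour 1 was closest to the miR-183-5p tumours in Col5a1. Among smooth muscle and pericyte genes 0 were higher and 1 lower of 12.

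Neutrophil genes were higher in miR-183-5p tumours. Of 19 tested, 18 had a positive log2 fold change, 11 had an unadjusted p-value under 0.05 on the higher side and 0 on the lower, and the median was 0.76. S100a9, a subunit of the calcium-binding protein calprotectin of neutrophils, had normalised counts of 9757, 6346 and 7606 against 5907, 3186 and 2933 (DESeq2, log2 fold change 0.98, SE 0.33, unadjusted p = 0.00296, adjusted p = 0.234). S100a8, the other subunit, had 4575, 2841 and 3423 against 2561, 1603 and 1518 (DESeq2, log2 fold change 0.93, SE 0.33, unadjusted p = 0.0042, adjusted p = 0.271). In both genes the groups did not overlap, miR-183-5p tumour 1 was highest, and the ctrl tumours (5493, 3345 and 6007 for S100a9) overlapped with the miR-142-5p tumours. Il1r2, the decoy receptor for interleukin 1, had 917, 931 and 1022 against 883, 558 and 494, where miR-142-5p tumour 1 came close to the miR-183-5p tumours without overlap (DESeq2, log2 fold change 0.57, SE 0.21, unadjusted p = 0.00724, adjusted p = 0.341). With tumour 3 of both groups left out, 3 neutrophil genes were counted on the higher side and the median was 0.63. The neutrophil genes on the higher side numbered 12, 5 and 3 without miR-142-5p tumours 1, 2 and 3 in turn and 3, 10 and 8 without miR-183-5p tumours 1, 2 and 3. The summed TPM of the list was 4666, 3193 and 3772 in miR-183-5p tumours. It was 2757, 1493 and 1571 in miR-142-5p tumours and 2572, 1829 and 2987 in ctrl tumours. All miR-183-5p tumours thus lay above the miR-142-5p and ctrl tumours. However, miR-222-3p tumour 3 (3732) lay above miR-183-5p tumour 2.

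Genes of the response to TNF and NF-kB, the transcription factor of acute inflammation, stood higher in part, with 18 positive and 6 negative log2 fold changes. Tnf itself was among the negative ones (-0.39, SE 0.33), as was Traf1 (-0.38, SE 0.16), which was lower without overlap. Here 8 of 24 were higher and 1 lower (median 0.34), and without tumour 3 of both groups the counts were 5 and 0 (median 0.27). Ptgs2, the inducible cyclooxygenase that makes prostaglandins, had normalised counts of 4339, 3313 and 3481 against 2894, 1297 and 1968 (DESeq2, log2 fold change 0.85, SE 0.27, unadjusted p = 0.00164, adjusted p = 0.178), with no overlap. Il1b, which encodes interleukin 1 beta, had 6749.6, 3848 and 4921 against 4367, 2513 and 2807 (DESeq2, log2 fold change 0.68, SE 0.24, unadjusted p = 0.00466, adjusted p = 0.281). Cxcl2, a chemokine that draws neutrophils, had 672, 253 and 534 against 337, 136 and 147 (DESeq2, log2 fold change 1.23, SE 0.44, unadjusted p = 0.00477, adjusted p = 0.284). In Il1b and Cxcl2 the groups overlapped, because miR-142-5p tumour 1 lay above miR-183-5p tumour 2. The count of higher genes in this list was 12, 3 and 6 without miR-142-5p tumours 1, 2 and 3 in turn and 2, 7 and 8 without miR-183-5p tumours 1, 2 and 3.

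Hypoxia and glycolysis genes, the targets of the oxygen-sensing factor HIF, were higher at the unadjusted level in 13 of 25 cases and lower in 0, and 24 had a positive log2 fold change (median 0.37). Ero1l, an oxidase of the endoplasmic reticulum, had normalised counts of 13826, 12759.5 and 18746 against 11241, 4648 and 8107 (DESeq2, log2 fold change 0.92, SE 0.27, unadjusted p = 0.000619, adjusted p = 0.124). Car9, the carbonic anhydrase of hypoxic tumour cells, had 5992, 4849.5 and 6634 against 4406, 2886 and 3811 (DESeq2, log2 fold change 0.65, SE 0.19, unadjusted p = 0.000621, adjusted p = 0.124). P4ha2, which hydroxylates collagen, had 2633, 2191 and 2399 against 2026, 1407 and 1559. In the 3 genes the groups did not overlap, and miR-142-5p tumour 1 was the highest of its group. With tumour 1 and 2 of either group alone, 2 genes were counted, with a median of 0.27. Hypoxia genes on the higher side numbered 23, 3 and 3 without miR-142-5p tumours 1, 2 and 3 in turn and 9, 9 and 6 without miR-183-5p tumours 1, 2 and 3. Angiogenic factors and receptors had 2 of 20 higher and 0 lower (in the same order of tumours left out, 4, 2 and 4, then 2, 3 and 1 higher).

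**Figure D4:**
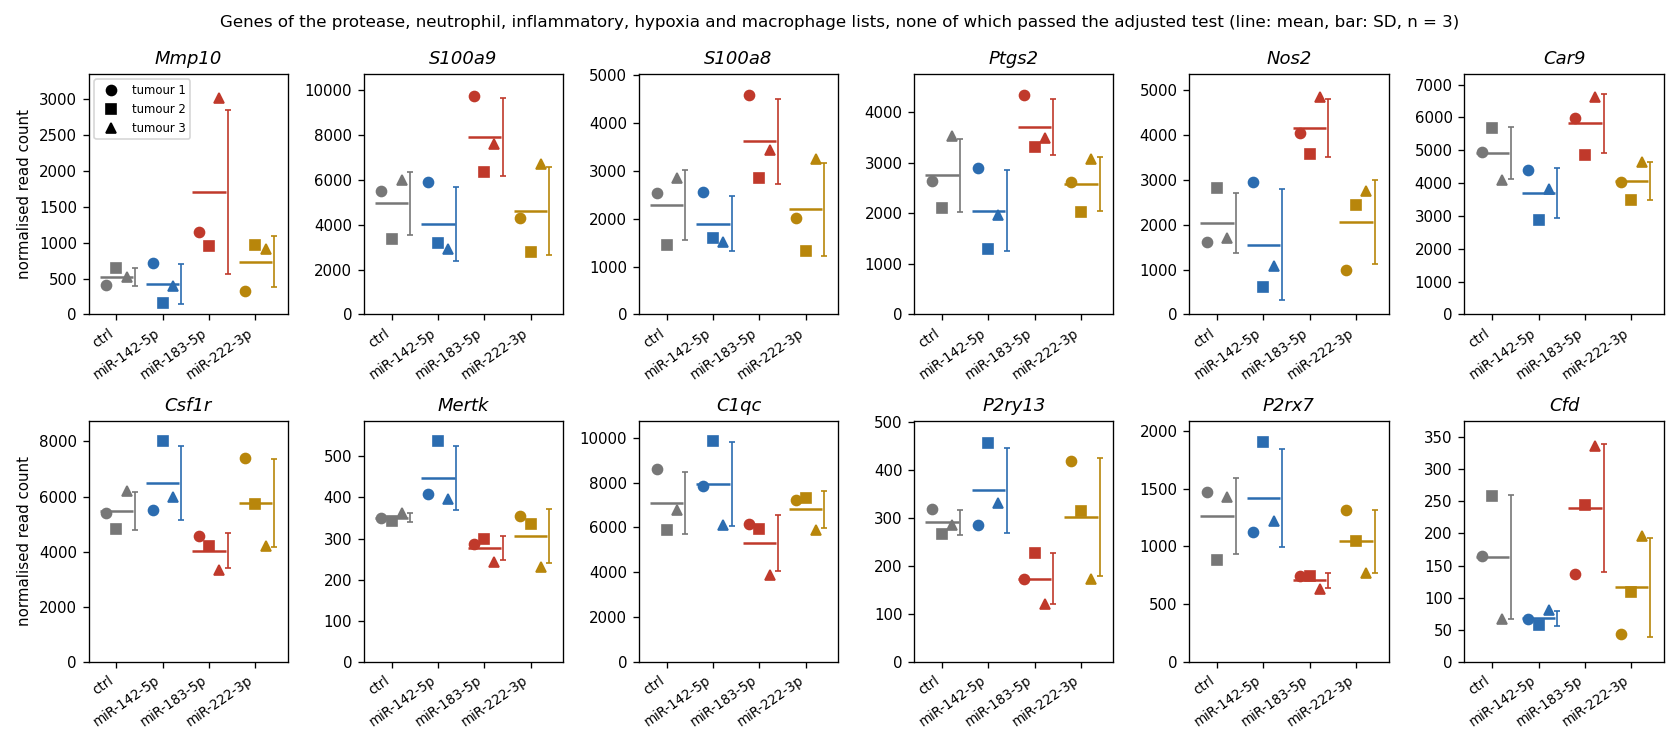
Normalised read counts (vertical axis) of 12 genes in the 12 tumours, with the mean (line) and SD (bar, n = 3) of each group. Mmp10, S100a9, S100a8, Ptgs2, Nos2, Car9 and Cfd are higher and Csf1r, Mertk, P2ry13 and P2rx7 lower in each miR-183-5p tumour than in each miR-142-5p tumour, C1qc overlaps, and none passed the adjusted test.

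Macrophage and monocyte genes stood mostly lower in miR-183-5p tumours, with a negative log2 fold change in 19 and a positive one in 4. The 4 were Ly6c2 (0.30), Cd14 (0.12), Spp1 (0.12) and Gpnmb (0.09), all with overlap between the groups. Of 23 tested, 9 were lower and 0 higher at the unadjusted level (median -0.48), and the counts without tumour 3 of both groups were 9 and 0 (median -0.47). Without miR-183-5p tumour 3 alone 4 were lower (median -0.35), and over the single tumours left out the lower genes numbered 7, 2 and 10 without miR-142-5p tumours 1, 2 and 3 in turn and 10, 10 and 4 without miR-183-5p tumours 1, 2 and 3. Csf1r, the receptor for the growth factor that macrophages depend on, had normalised counts of 4557, 4222 and 3327 in miR-183-5p tumours against 5508, 8015 and 5967 in miR-142-5p tumours (DESeq2, log2 fold change -0.69, SE 0.22, unadjusted p = 0.00143, adjusted p = 0.165). Mertk, a receptor for the uptake of dying cells, had 288, 298 and 244 against 409, 538 and 397 (DESeq2, log2 fold change -0.69, SE 0.20, unadjusted p = 0.000385, adjusted p = 0.112). Neither gene overlapped between the groups, and in both miR-142-5p tumour 2 was highest and miR-183-5p tumour 3 lowest. C1qc, a chain of the complement protein C1q that macrophages make, had 6137, 5912 and 3877 against 7856, 9849 and 6090.4 (DESeq2, log2 fold change -0.58, SE 0.22, unadjusted p = 0.00857, adjusted p = 0.373), where miR-183-5p tumour 1 lay above miR-142-5p tumour 3. The summed TPM of the list overlapped between the groups, at 11069.6, 12923 and 10707 against 13231, 14982 and 11491.

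Among complement genes 1 was higher and 6 were lower of 18 (without tumour 3 of both groups 1 and 4). The list as a whole did not lean to 1 side, with 10 positive and 8 negative log2 fold changes and a median of 0.01. Among the lower genes were C1qa, C1qb and C1qc, which are also counted in the macrophage list above. Without miR-183-5p tumour 3 alone 1 was higher and 1 lower, and the lower genes numbered 5, 1 and 6 without miR-142-5p tumours 1, 2 and 3 in turn and 5, 6 and 1 without miR-183-5p tumours 1, 2 and 3, while the higher ones numbered, in the same order, 3, 1 and 1, then 1, 2 and 1. The higher gene with all 6 tumours was Cfd, complement factor D, which fat cells also make, with normalised counts of 137, 244 and 336 against 66, 56.7 and 80.5 and ctrl values of 164, 259 and 66.5 (DESeq2, log2 fold change 1.82, SE 0.52, unadjusted p = 0.000506, adjusted p = 0.121). Cd55, which protects cells from complement, was on the lower side with 59, 36 and 41.1 against 76.2, 193 and 218. Neither gene overlapped between the groups. Adipocyte genes had 4 of 13 higher and 0 lower, Cfd among them, and without tumour 3 of both groups 3 and 0 (over single tumours left out in that order, 3, 4 and 4, then 4, 3 and 1 higher). Lysosome and cathepsin genes had 2 of 25 lower and 0 higher, led by the leukocyte gene Laptm5 (5590.0, 5430.1 and 4944 against 7206, 6901 and 9284, DESeq2, log2 fold change -0.55, SE 0.15, adjusted p = 0.0977). Over the single tumours left out, the lower lysosome genes numbered 1, 1 and 3, then 2, 3 and 1.

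The lists of TAM, M1 and M2 genes that the study used were counted in the same way, and some of their genes also stand in the lists above. Of 112 TAM genes tested, 19 were lower and 1 higher in miR-183-5p tumours, and the median was -0.02. Rasal3 and Bach2 led the lower side and Nek6 was the higher one. Bach2, a repressor of lymphocyte differentiation, had normalised counts of 169, 201 and 159 against 321, 241 and 798, and its highest value, like that of Rasal3, was in miR-142-5p tumour 3. Leaving out tumour 3 of both groups, the counts were 7 lower and 1 higher, and the lower TAM genes numbered 19, 9 and 12 without miR-142-5p tumours 1, 2 and 3 in turn and 17, 14 and 8 without miR-183-5p tumours 1, 2 and 3. The higher ones numbered, in this order, 9, 1 and 2, then 1, 1 and 1. Of 35 M2 genes, 6 were lower and 0 higher (median -0.21), and without tumour 3 of both groups 2 and 0 (median -0.20). Lower M2 genes numbered 10, 4 and 5, then 10, 5 and 3 in the order just given. P2ry13, a nucleotide receptor of macrophages and microglia, had 173, 227 and 120.2 against 286, 456 and 330.5 (DESeq2, log2 fold change -1.04, SE 0.32, unadjusted p = 0.000941, adjusted p = 0.139). The groups did not overlap, nor did they in Cerk, a ceramide kinase, or Ms4a4a. Slco2b1, given above, is also a gene of this list. Of 45 M1 genes, 3 were higher and 4 lower (median 0.14), with the chemokine gene Ccl5 (177, 169.9 and 223 against 237, 261 and 499) on the lower side. Without tumour 3 of both groups 0 M1 genes were higher and 2 lower (median 0.05). Over the single tumours left out, 10, 0 and 0, then 5, 0 and 1 M1 genes were higher and 3, 4 and 1, then 3, 4 and 4 lower.

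Nos2, Arg1 and Mrc1 are commonly used to tell the M1-like from the M2-like state. Nos2, the inducible nitric oxide synthase, had normalised counts of 4053, 3570.1 and 4842 in miR-183-5p tumours against 2954, 623 and 1078 in miR-142-5p tumours (DESeq2, log2 fold change 1.42, SE 0.58, unadjusted p = 0.0143, adjusted p = 0.432). The groups did not overlap, but miR-142-5p tumour 1 lay far above the rest of its group, and without that tumour the DESeq2 log2 fold change was 2.29 (SE 0.37, adjusted p = 6.6e-06), with adjusted p-values up to 1 under the other alternatives. Arg1, which degrades the same amino acid, had 9838, 8209.6 and 7148 against 15793, 8715 and 6287 (DESeq2, log2 fold change -0.29, SE 0.27, adjusted p = 0.923). Again miR-142-5p tumour 1 was the highest of its group, here above all miR-183-5p tumours, and the groups overlapped. Mrc1, the mannose receptor, had 2456, 2069 and 961 against 2563, 4352 and 2694 (DESeq2, log2 fold change -0.81, SE 0.47, adjusted p = 0.748) with no overlap, and Tgfb1 had 2020.3, 2252 and 2596 against 2180.2, 2256 and 1876 (DESeq2, log2 fold change 0.12, SE 0.15, adjusted p = 0.959) with overlap. In the list of arginine metabolism and alternative activation 2 of 16 genes were higher, Odc1 and Nos2, and 1 was lower. Without tumour 3 of both groups, 0 genes of this list were higher and 0 lower. Over the single tumours left out, 4, 2 and 1, then 2, 2 and 1 of these genes were higher and 2, 1 and 2, then 3, 1 and 1 lower. Odc1, which starts polyamine synthesis, shares at least 95% of the bases over long stretches with several pseudogenes, and Gm7993 among them held reads equal to 5.52% of those of Odc1.

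Lymphoid genes were lower in miR-183-5p tumours with all 6 tumours in the fit. Of 24 T cell genes tested, 21 were lower and 0 higher at the unadjusted level, with a median log2 fold change of -1.42. The counts without tumour 3 of both groups were 0 and 1 and the median was -0.17. With single tumours left out, the lower T cell genes numbered 24, 22 and 3 without miR-142-5p tumours 1, 2 and 3 in turn and 18, 22 and 11 without miR-183-5p tumours 1, 2 and 3. Trbc2 had normalised counts of 141, 166 and 78.1 against 172, 308 and 932 and shares 95.6% of 521 bases with Trbc1, so the division of reads between these genes is uncertain. Of 12 B and plasma cell genes tested, 8 received no p-value in DESeq2, which withholds it where 1 library has an outlying count, and 3 of the other 4 were lower at the unadjusted level. In edgeR, which gave all of them a p-value, 11 were lower. In DESeq2 the lower genes numbered 11, 11 and 0 without miR-142-5p tumours 1, 2 and 3 in turn and 3, 3 and 3 without miR-183-5p tumours 1, 2 and 3. The B and plasma cell genes that received a p-value differed between these fits, so the counts do not all rest on the same 4 genes. The list had a median of -4.61 that became 0.03 without tumour 3 of both groups. Ighm, the heavy chain of IgM, had 245, 331 and 219 against 264, 413 and 4044, and Cd22, a B cell lectin, had 122, 52.2 and 28.6 against 113, 301 and 3189.7. In both genes the groups overlapped and miR-142-5p tumour 3 stood far above the rest. Genes of lymphoid tissue organisation, of which 1 received no p-value, had 4 of 8 lower and 0 higher (without tumour 3 of both groups 0 and 0), dendritic cell genes 4 of 13 lower and 0 higher (0 and 0), and NK and cytotoxic cell genes 2 of 16 lower and 0 higher (higher and lower 1 and 0). In the order of tumours left out given for T cells, the lower genes of lymphoid tissue organisation numbered 5, 5 and 0, then 3, 4 and 2. Those of dendritic cells numbered 6, 5 and 0, then 5, 5 and 2, and those of NK and cytotoxic cells 4, 2 and 2, then 2, 3 and 2.

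Skeletal muscle genes followed the same pattern on the other side. Of 38, 22 passed the count filter, a filter that a gene read in 1 tumour alone does not pass, and 7 of these received no p-value in DESeq2. Of the other 15, 8 were higher and 0 lower, and the median over all 22 was 2.21. In edgeR 14 were higher. Neb, the giant protein of thin filaments, had normalised counts of 73.1, 54.7 and 539.5 against 37.2, 52.9 and 60.5, and Des, which encodes desmin, had 74.4, 89.1 and 1762 against 110.2, 63 and 182. In either gene 1 tumour, miR-183-5p tumour 3, stood apart. Higher and lower genes numbered 0 and 0 without tumour 3 of both groups, and the median was -0.05. In DESeq2 the higher genes numbered 7, 4 and 4 without miR-142-5p tumours 1, 2 and 3 in turn and 16, 16 and 0 without miR-183-5p tumours 1, 2 and 3. The genes that received a p-value differed between these fits, so the counts do not all rest on the same 15 genes.

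In 10 further lists 0 members had an unadjusted p-value under 0.05 in DESeq2. The edgeR test gave 0 in 9 of these lists, and 2 lower MHC class II genes. In that list 2 of 9 genes (H2-Oa and H2-Ob) received no p-value in DESeq2. The median log2 fold changes of the 10 lists were 0.12 for 4T1 carcinoma epithelium (15 genes), 0.09 for skin keratinocytes (8), 0.32 for erythroid cells (6), 0.10 for the interferon gamma response (20), 0.02 for MHC class I (12), -0.32 for MHC class II (9), 0.25 for cell cycle and mitosis (31), 0.36 for cholesterol synthesis (23), 0.02 for oxidative phosphorylation (29) and -0.05 for ribosomal proteins (34). Among the remaining lists, the counts of higher and lower members were 2 and 0 of 25 interferon-stimulated genes, 0 and 1 of 17 endothelial genes, and 1 and 0 of 9 nerve and Schwann cell genes. They were 1 and 0 of 20 genes of the unfolded protein and integrated stress response, 0 and 1 of 20 TGF-beta response genes, 1 and 0 of 16 genes of epithelial-mesenchymal transition and 1 and 0 of 26 ribosome biogenesis genes. CC and CXC chemokines had 3 higher and 3 lower of 23, and immune checkpoint genes 1 and 3 of 15 with a p-value (1 received none), among them Sirpa, the macrophage receptor for CD47 (3632, 3242 and 2937 against 4202, 5261 and 3941). Targets of p53 split evenly (2 and 2 of 17): the cell cycle inhibitor Cdkn1a was on the higher side (1866, 1483 and 1511 against 1461, 785 and 844) and Sesn1 on the lower (497, 489 and 387 against 595, 816 and 729), both without overlap. These counts also moved with the tumours included. Without tumour 3 of both groups the higher and lower counts were 0 and 0 for interferon-stimulated and for endothelial genes. They were 0 and 1 for the stress response, for chemokines and for checkpoint genes. Without miR-142-5p tumours 1, 2 and 3 and then miR-183-5p tumours 1, 2 and 3, the higher interferon-stimulated genes numbered 8, 0 and 0, then 14, 0 and 0. Those of the stress response numbered 5, 0 and 1, then 1, 2 and 0. The higher chemokines numbered 7, 1 and 2, then 1, 3 and 2. The lower endothelial genes numbered 0, 1 and 1, then 4, 2 and 0, and the lower checkpoint genes 5, 2 and 2, then 2, 2 and 1.

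**Figure D5:**
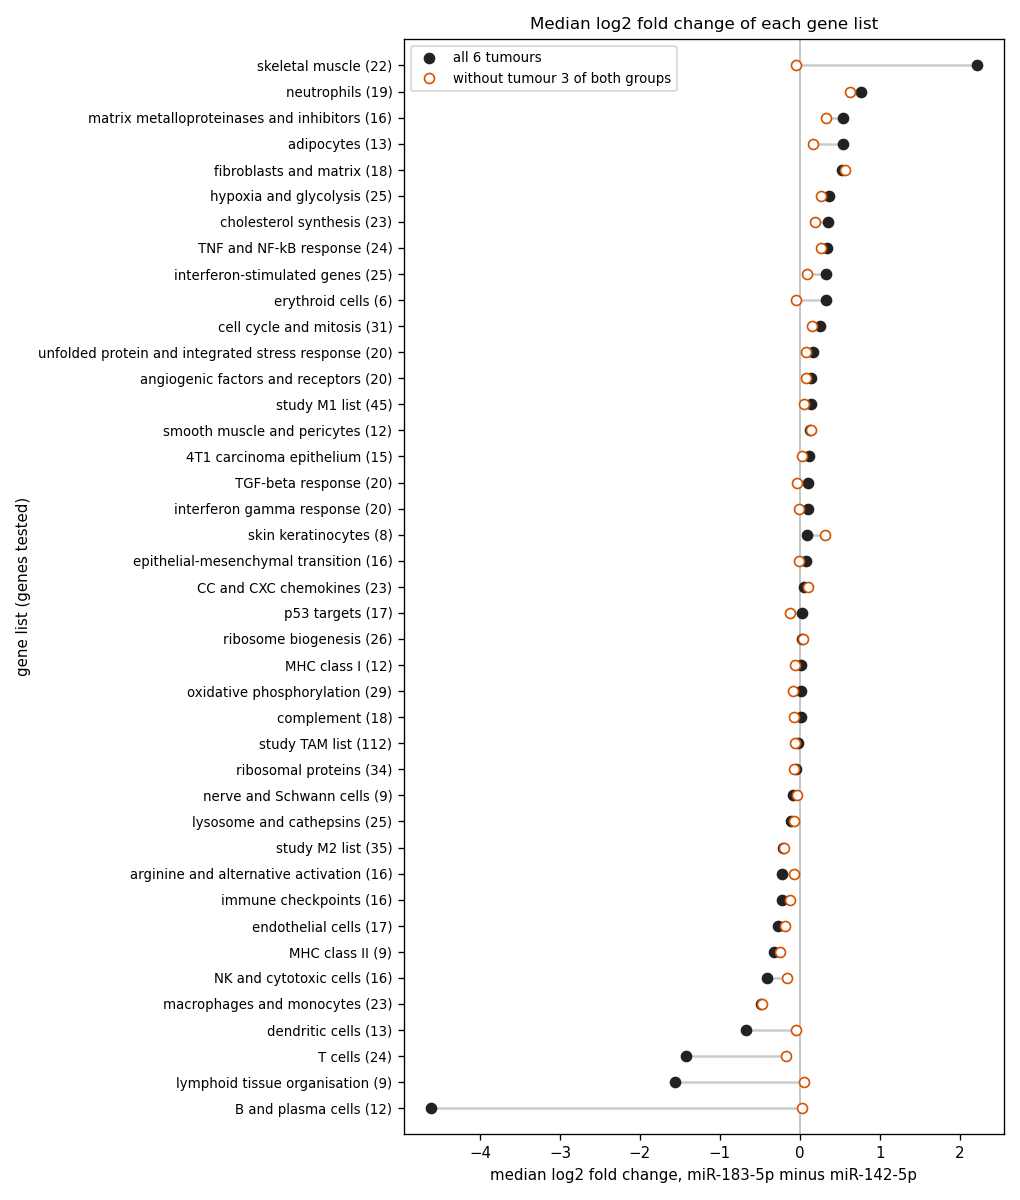
Median log2 fold change (horizontal axis, miR-183-5p minus miR-142-5p) of each of the 41 lists with all 6 tumours (filled) and without tumour 3 of both groups (open), with the number of genes tested in parentheses. Skeletal muscle (2.21 to -0.05) and B and plasma cells (-4.61 to 0.03) move to near 0, whereas neutrophils (0.76 to 0.63) and macrophages (-0.48 to -0.47) move little.

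It was last examined how genes with a seed match to either mimic stood in the comparison. The 3′ UTR of the most abundant protein-coding transcript was searched for the complement of bases 2 to 8 (7mer-m8), or this followed by an A (8mer), in 14596 of the tested genes. A median log2 fold change of -0.00661 was found for 1009 genes with matches to miR-183-5p alone, of -0.00628 for 1731 with matches to miR-142-5p alone, of -0.0182 for 349 with both and of 0.00205 for 11507 with neither. Genes lower in miR-183-5p tumours at the unadjusted level made up 4.16% of those with a miR-183-5p match alone, and 4.94% of those with neither. Genes higher in miR-183-5p tumours at that level made up 3.52% of those with a miR-142-5p match alone, and 3.23% of those with neither. Counting 8mer sites alone, the medians of the first and second group were -0.0063 (207 genes) and -0.0131 (668 genes). Leaving out tumour 3 of both groups, the medians of the same groups under the first search were 0.0162 and 0.0201. Genes with a match had longer 3′ UTRs (median 1951 and 2095 bases) than those with neither (749 bases), and these groups share all 6 libraries.

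Ezr, Idh2 and Nfe2l2, which stand among the genes named by list, held an 8mer. Their sites are shown with the match in capitals, so that the letters can be read beside the counts:
Ezr, miR-183-5p site: gctcacggGTGCCATActtttc
Idh2, miR-183-5p site: atcacatgGTGCCATAtttagc
Nfe2l2, miR-142-5p site: gcagaaacACTTTATAagtaac
The matches begin at bases 310 of 1262 (Ezr, chromosome 17), 235 of 270 (Idh2, chromosome 7) and 83 of 448 (Nfe2l2, chromosome 2) of the 3′ UTR. Ezr, which links actin to the membrane, had normalised counts of 5285, 5117 and 5278 in miR-183-5p tumours against 6160.1, 5965 and 5915 in miR-142-5p tumours, with no overlap (DESeq2, log2 fold change -0.20, SE 0.08, unadjusted p = 0.0129, adjusted p = 0.424). Idh2, a mitochondrial isocitrate dehydrogenase, had 4055, 4088 and 3847 against 4159, 3976 and 3379.6 (DESeq2, log2 fold change 0.06, SE 0.13, adjusted p = 0.992). Nfe2l2, the regulator of the oxidative stress response, had 3759, 4169 and 3852 against 3861, 4268 and 3518 (DESeq2, log2 fold change 0.02, SE 0.12, adjusted p = 0.998). The groups overlapped in Idh2 and Nfe2l2. An 8mer to miR-142-5p was also held by Acta2, Erap1, Hmgcs1, Cycs, Inhba and Tnfrsf10b, and Inhba held one to miR-183-5p too. Their log2 fold changes were 1.15 (SE 0.69) for the smooth muscle actin Acta2, -0.06 (SE 0.13) for the peptide-trimming enzyme Erap1 and 0.36 (SE 0.24) for Hmgcs1 of cholesterol synthesis. They were 0.27 (SE 0.22) for the cytochrome Cycs, 0.57 (SE 0.34) for the activin subunit Inhba and 0.25 (SE 0.12) for the death receptor gene Tnfrsf10b. The DESeq2 adjusted p-values of these 6 genes ran from 0.614 to 0.992. The value of Cycs is uncertain, since the near-identical Gm10053 held reads equal to 76.2% of its own.

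Egr1, Foxo1, Pdcd4 and Itgb1 each held 1 match to miR-183-5p and had log2 fold changes of 0.03 (SE 0.22), -0.21 (SE 0.15), -0.40 (SE 0.24) and 0.15 (SE 0.14). Socs1, with 1 match to miR-142-5p, had -0.09 (SE 0.35). The adjusted p-values of these 5 genes ran from 0.782 to 0.998 (DESeq2, Benjamini-Hochberg). Egr1 and Foxo1 are transcription factors and Pdcd4 is a translation repressor, Itgb1 is an integrin chain and Socs1 an inhibitor of cytokine signalling. Of the 8 genes that changed, Fads3 had 1 match, to miR-142-5p, and the other 7 had 0 to either miRNA. Ncf1, on the lower side above, had 2 matches to miR-183-5p. Mdn1, a factor of ribosome assembly, had 1135, 1121 and 1008 against 843, 826 and 988 without overlap (DESeq2, log2 fold change 0.29, SE 0.12, adjusted p = 0.447), but without the length correction its log2 fold change was of the other sign, -0.28.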

How the data were processed

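RNA of the tumours was sequenced from stranded mRNA libraries. The authors quantified reads with Salmon, and the deposited tables hold, for 118783 transcripts, the estimated count of reads, its effective length and its TPM. The Ensembl release named in the methods is not the one in the tables. Identifiers were matched to GENCODE M21 (GRCm38) without their version, and 116710 matched. For each gene the estimated counts were added up and rounded, the mean effective length served as an offset, and a gene was kept if 3 or more of the 12 libraries held 10 or more of its reads. Libraries held 20490870 to 27021401 estimated reads in the tumours compared. Groups came from the labels. DESeq2 1.42.0 (Wald test, all 12 libraries, group as the only factor) in R 4.3.3 gave log2 fold changes, with Benjamini-Hochberg adjustment and a threshold of 0.05. Alternatives were edgeR 4.0.16, other scalings, filters and sample sets, a replicate block, and each tumour left out. The fits were tested on simulated data. Named genes were those called, up to 10 per direction with the smallest p-values, no overlap and a mean normalised count of 100 or more, up to 3 per list, and fixed sets of macrophage, miRNA-related, muscle, lymphoid and epithelial genes. Genes that met the rule but are not described singly are covered by the counts of their lists, and some named genes are not reported here. Members and lists were chosen with earlier results of these data known. Plots were drawn with matplotlib 3.10.9.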

Additional observations from a re-analysis of the deposited data

How the results depend on the processing

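The number of genes called was 8 as reported. It was 0 with edgeR (1128 genes at an unadjusted p-value under 0.05), 5 without a count filter, 4 without the length offset, 71 when the fit held the 2 groups alone (36 higher and 35 lower, 6 shared), 1 without tumour 3 of both groups, 38 at an adjusted p-value under 0.1 and 5 with a log2 fold change of at least 1 in size. Leaving out each of the 6 tumours in turn gave from 0 (without miR-183-5p tumour 3) to 415 (without miR-142-5p tumour 1). TMM factors, at least 50 counts in every library, protein-coding genes alone and the set without muscle and lymphoid lists gave 6 or 7. With the replicate number as a block, 6 were called, 5 of them shared. The correlations of same-numbered tumours were -0.253, 0.182 and 0.0164, so the numbers were not taken as a pairing, and not every tumour correlated best with its own number. The cause of these differences was not tested.

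Of the named genes, 74 were followed over these settings, and most of the 74 kept their direction. Without tumour 3 of both groups the log2 fold change had the other sign for Tgfb1 (-0.0539), Cd3e (0.0918), Tnnt3 (-0.0143), Des (-0.0852), Foxo1 (0.0207) and Nfe2l2 (-0.0355), and so had the median of genes with a miR-183-5p match alone (0.0162) and with a miR-142-5p match alone (0.0201). Without the length offset this held for Tgfb1 (-0.0027) and Mdn1 (-0.28). With single tumours left out, the log2 fold change crossed 0 in 6 genes: for Arg1 from -0.54 to 0.16, for Des from -0.54 to 2.96, for Idh2 from -0.0249 to 0.12, for Nfe2l2 from -0.0492 to 0.0899, for Socs1 from -0.25 to 0.13 and for Egr1 from -0.10 to 0.22. With 3 tumours a group, an exact permutation test of 1 gene cannot go below 0.1, and depth limits genes with few reads.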

Other observations

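The miR-222-3p tumours were on neither side of the contrast, though they entered the fit that estimated the spread. Their normalised counts were 5045, 7287 and 7013 for Mmp13, 2235, 4530.4 and 4842 for Mmp3, 436, 471 and 817 for Hp and 377, 409 and 396 for Col14a1. For Nos2 they were 989.8, 2442 and 2747, for S100a9 4307, 2802 and 6701 and for Csf1r 7383, 5746 and 4192. The summed TPM of neutrophil genes was 2188, 1838 and 3732 and that of macrophage and monocyte genes 14031, 11575 and 11168 in these tumours.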
